A study of Homo sapiens with 16 samples.

Results

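Listed peaks from an RNA immunoprecipitation study of PABPC1, a protein that coats poly(A) tails in the cytoplasm, were examined at the HIST1 histone gene cluster and at 3 histone variant genes with polyadenylated mRNAs. Members were chosen by position in the human genome build hg19. A peak belonged to the cluster where its midpoint lay on chromosome 6 in a window at 26017000 to 26286000, leaving out the HFE gene on the plus strand, or in a window at 27775000 to 27862000. A peak belonged to a variant gene where its midpoint and strand matched H3F3A (chromosome 1 at 226249500 to 226259703, plus strand), H3F3B (chromosome 17 at 73772517 to 73775860, minus strand) or H2AFZ (chromosome 4 at 100869243 to 100871545, minus strand). Of the 175749 peaks in 8 lists, 42 met the rule, 14 in the cluster windows and 28 in H3F3A, and none in H3F3B or H2AFZ. Joined where they overlapped on the same strand, the 42 peaks made 9 of the 36802 regions of the series, 4 in the cluster and 5 in H3F3A.

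Most histone mRNAs are made from clustered, intronless genes while DNA is replicated, and they end in a conserved stem-loop bound by the protein SLBP instead of a poly(A) tail. H3F3A and H3F3B are separate, intron-containing genes that both encode histone H3.3, and H2AFZ encodes H2A.Z. Their mRNAs are spliced, carry a poly(A) tail and are made outside replication as well. PABPC1 binds poly(A) tails, so the loci set mRNAs with and mRNAs mostly without its usual binding site side by side.

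The cells were H1299, an established human lung carcinoma line, with a stably expressed Myc-tagged PABPC1. The protein was wild type (WT) or K512R, in which lysine is replaced by arginine, and cells were untreated or exposed to sodium arsenite (AS) at 500 µM, which causes oxidative stress and the formation of stress granules. RNA immunoprecipitation (IP) used an antibody to Myc, and IP and input RNA were both depleted of ribosomal RNA, not selected for poly(A). The series has 16 samples, and lists of 8 were used, as 4 pairs of replicates. The sample record and the names of the lists disagree for 6 of the 8. Pair A is untreated WT by both, and IP by the record. Pair B is untreated WT input by the record and WT with AS by the list names. Pair C is IP of WT with AS by the record and untreated K512R by the names. Pair D is input of WT with AS by the record and K512R with AS by the names. Setting B and D against A and C therefore compares input with IP by the record and AS with no AS by the names, and which reading holds was not settled. The labels do not say whether replicates were separate cultures, how many clones were used, or whether the cells still made their own PABPC1.

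Lists held 19953 to 25111 peaks. No list gives read counts, so depth is unknown and precision rests on the number of lists. Each peak has a score from the authors' caller, of unstated unit, between 13.02 and 3233.06. It was used to rank peaks within a list, as the percentage of that list's peaks that scored lower, and many of the strongest peaks share a score of 3100.

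In the cluster, 3 regions were present in every list of B and D and in no list of A and C. This pattern held for 1106 of the 36802 regions of the series (3.01%). The fourth cluster region had weak peaks in 1 list of A and 1 list of C. The first, HIST1 region 1, spanned 26104104 to 26104518 of chromosome 6, plus strand, and its 415 bp were covered in full in all 4 lists of B and D. Its scores were 2888.97 and 2486.45 in B and 3100 in both lists of D, above 89.0% to 89.8% of the peaks in each list. It was among the higher-ranked peaks of all 4 lists.

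HIST1 region 3, on the plus strand at 26156559 to 26157343, was 785 bp wide and again had identical ends in the 4 lists of B and D. Its scores were 3160.70 and 1498.66 in B and 1683.38 and 3100 in D. At least 84.7% of each list's peaks scored lower, and in replicate 1 of B the share was 99.8%.

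HIST1 region 2, on the minus strand at 26115101 to 26115363, was 263 bp wide with the same ends in the same 4 lists. It ranked low, with scores of 25.23 and 64.09 in B and 69.06 and 75.31 in D. Only 13.4% of peaks scored lower in replicate 1 of B, and 34.1% to 35.0% did in the other lists that held it. Its presence thus rests on weak peaks, unlike that of regions 1 and 3.

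HIST1 region 4, in the other window, was found on the plus strand at 27819887 to 27819963. Replicate 1 of A had a peak of 77 bp with a score of 16.47 there, and replicate 2 of C one of 74 bp with a score of 17.19. Both scores are close to the lowest in the series, and in each list 5.08% and 5.79% of peaks scored lower. The replicates of A differed in this region, and so did those of C, so it separates no pair from another. Replicate 1 of A and replicate 2 of C were the only lists with a peak in 217 regions (0.590%).

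**Figure D1:**
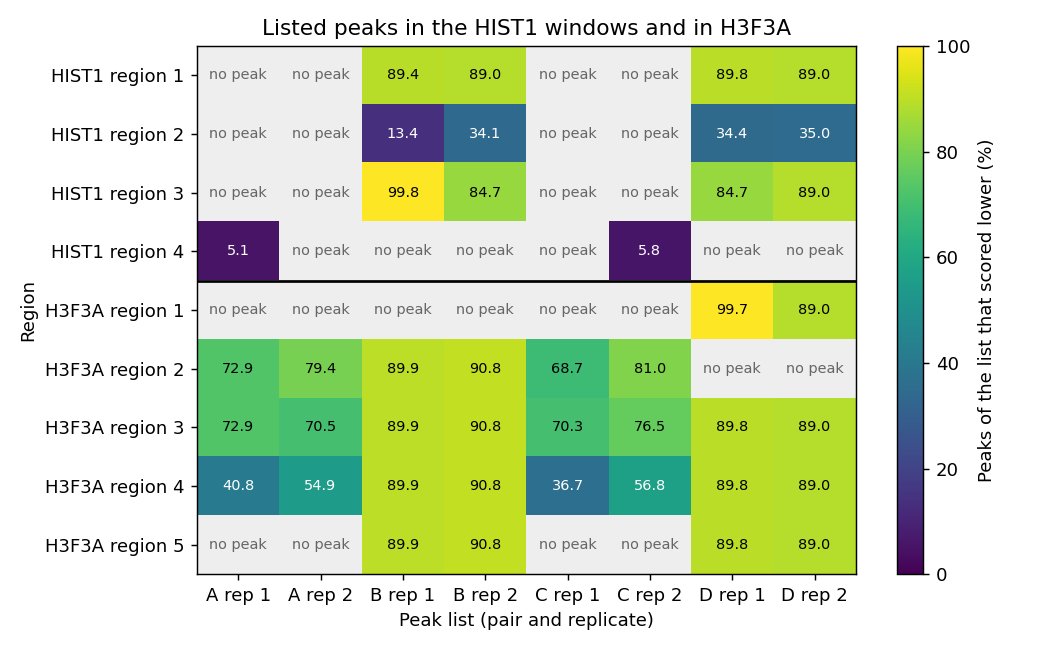
Each row is a region of the HIST1 windows (above the black line) or of H3F3A (below it), each column 1 of the 8 peak lists, and the colour and number give the percentage of that list's peaks that scored lower; grey cells have no listed peak. HIST1 regions 1 to 3 and H3F3A region 5 are filled in B and D alone, H3F3A regions 3 and 4 in all 8 lists, and H3F3A region 1 in D alone.

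The windows span 356 kb and held 14 of the 9150 peaks on chromosome 6, or 3.93 peaks per 100 kb over the 8 lists. The stretch between the windows held 63 peaks in 16 regions, or 4.23 per 100 kb. Whether HIST1 genes also lie in that stretch was not analysed here, so it is no background free of histone genes. The 3 regions of the window at 26017000 covered 0.544% of its length. RefSeq's gene table (GRCh38.p14) names 55 protein-coding HIST1 genes on chromosome 6, of which 6 encode histone H1, 12 H2A, 15 H2B, 10 H3 and 12 H4. These counts are for the whole chromosome and were not limited to the windows. In that table HIST1H1C comes before HFE in gene order, and HIST1H4C, HIST1H1T, HIST1H2BC, HIST1H2AC and HIST1H1E follow it. The table is for another build than the peaks, so which gene each region belongs to was not analysed here. Several of these genes have near-identical copies, and the placing of reads that match more than 1 of them is not given in the sources. No list had a peak in the HFE window on either strand. The nearest listed peaks outside the windows ended at 25610409 and began at 26365387 for the one, and ended at 27440884 and began at 28048482 for the other.

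H3F3A had peaks in every list, 3 each in A and C and 4 each in B and D. Its 5 regions summed to 2181 bp, or 21.4% of the gene's window. They are numbered here from the 5′ end.

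H3F3A region 1, at 226249552 to 226249795, had a peak in both lists of D and in no other list. The peak was 244 bp wide in replicate 1 and 204 bp in replicate 2, with scores of 3127.72 and 3100, and only its 5′ end differed. This pattern, every list of D and no other, was shown by 324 regions of the series (0.880%).

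H3F3A region 2, at 226250408 to 226250512, had the reverse pattern, with a peak of 105 bp in every list of A, B and C and in none of D. Scores were 535.18 and 1023.07 in A, 3100 in both lists of B, and 373.33 and 983.41 in C. This pattern held for 391 regions of the series (1.06%). Regions 1 and 2 are 612 bp apart, and of the 324 regions found in D alone, 9 (2.78%) had within 1 kb on the same strand a region found in all lists but those of D.

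H3F3A region 3, at 226251678 to 226252180, was in all 8 lists, as were 29.5% of all regions, with a fixed 3′ end and a 5′ end that varied. Its peak was 341 and 350 bp wide in A, 350 and 503 bp in B, 456 and 323 bp in C, and 349 and 323 bp in D. Replicates of B differed by more than the pairs A and D did, so no pair stood apart. Of the 10781 regions with 1 peak in each of the 8 lists, 79.1% had both ends identical in all 8, and in 3.90% the lower end took at least 6 positions, as it does here.

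H3F3A region 4, at 226253357 to 226254033, was also in all 8 lists, with a fixed 5′ end and a 3′ end near 1 of a pair of positions. The peak was 352 and 353 bp in A, 676 and 361 bp in B, 674 and 677 bp in C, and 353 bp in both lists of D. It was thus long in both lists of C and in replicate 1 of B, and short in the other 5 lists. Replicates of B differed nearly as much as C and A. In each list of B and C the length exceeded that of every list of A and D, by little in replicate 2 of B, which held for 151 regions of the series (0.410%). A length that went opposite ways in C against A and in D against B, in every list, was found for 291 regions (0.791%).

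H3F3A region 5, at 226259052 to 226259703, ends where the H3F3A window ends, at its 3′ limit. Its 652 bp were covered in full in all 4 lists of B and D, each with a score of 3100, and no list of A or C had a peak there. Of the 1106 regions found in every list of B and D and in no other (3.01% of all regions), 12 (1.08%) scored at least 3100 in all 4 lists, and this was one of them.

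**Figure D2:**
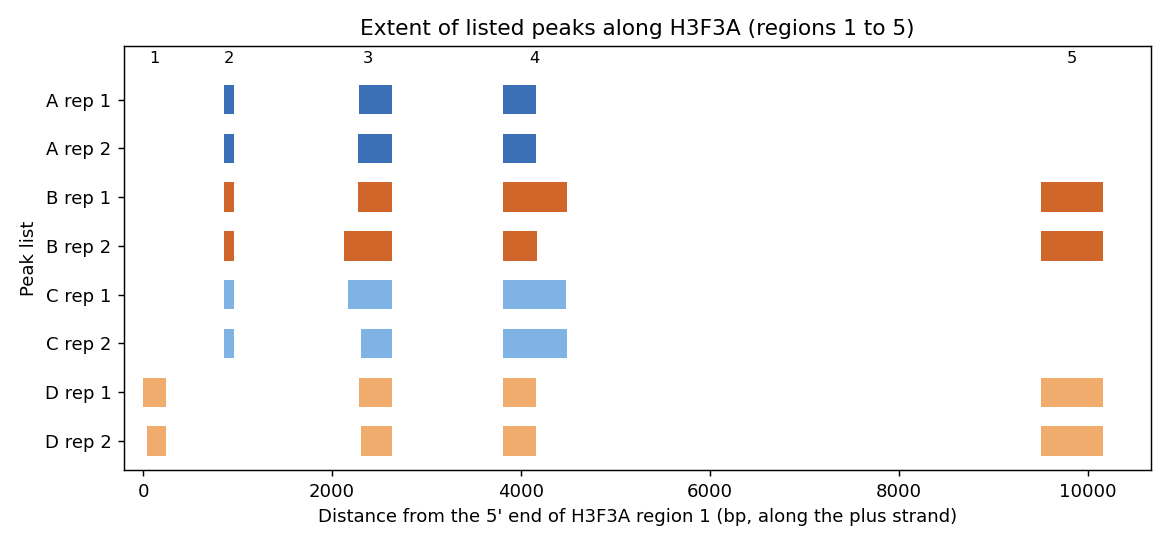
Bars show the extent of each listed peak along H3F3A in the 8 lists, with distance in bp from the 5′ end of region 1 along the plus strand on the horizontal axis and region numbers at the top. Region 5 is filled in B and D, region 1 in D and region 2 in A, B and C, while region 4 is long in C and in replicate 1 of B.

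Within their own lists, the 16 H3F3A peaks of B and D all scored at least 3100, above 89.0% to 99.7% of each list. Only region 1 in replicate 1 of D, at 3127.72, exceeded 3100 and gave the 99.7%. The others had the shared score of 3100 and lay above at most 90.8% of their list. The 12 peaks of A and C scored 71.89 to 1023.07, above 36.7% to 81.0% of each list. The lists hold different sets of peaks and the score has no stated unit. These ranks therefore describe the lists and cannot show whether binding changed.

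HIST1 regions 1 to 3 and H3F3A region 5 thus shared a pattern. In all 4, the peak's ends were identical in every list that held it, as in 943 of the 1106 regions with this pattern (85.3%). They were wide for this set, whose median width was 154.5 bp. HIST1 region 1 was wider than 80.6% of the set, region 2 than 72.0%, region 3 than 89.8% and H3F3A region 5 than 87.3%. Their ranks were less alike. The lowest rank over the 4 lists was above that of 98.6% of the set for HIST1 region 1 and for H3F3A region 5 and of 97.3% for HIST1 region 3, but of 26.0% for HIST1 region 2.

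Covered length, the bases of a locus under listed peaks, was 1463 bp in each list of B and D in the HIST1 window at 26017000 and 0 bp in each list of A and C. In H3F3A it was 798 and 808 bp in A, 1783 and 1621 bp in B, 1235 and 1105 bp in C, and 1598 and 1532 bp in D. The H3F3A means were 803 ± 7.07 bp in A, 1702 ± 115 bp in B, 1170 ± 91.9 bp in C and 1565 ± 46.7 bp in D (SD, n = 2 each). In both loci every list of B and D lay above every list of A and C. Without region 5 the H3F3A lists overlapped, with 798 and 808 bp in A, 1131 and 969 bp in B, 1235 and 1105 bp in C, and 946 and 880 bp in D.

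**Figure D3:**
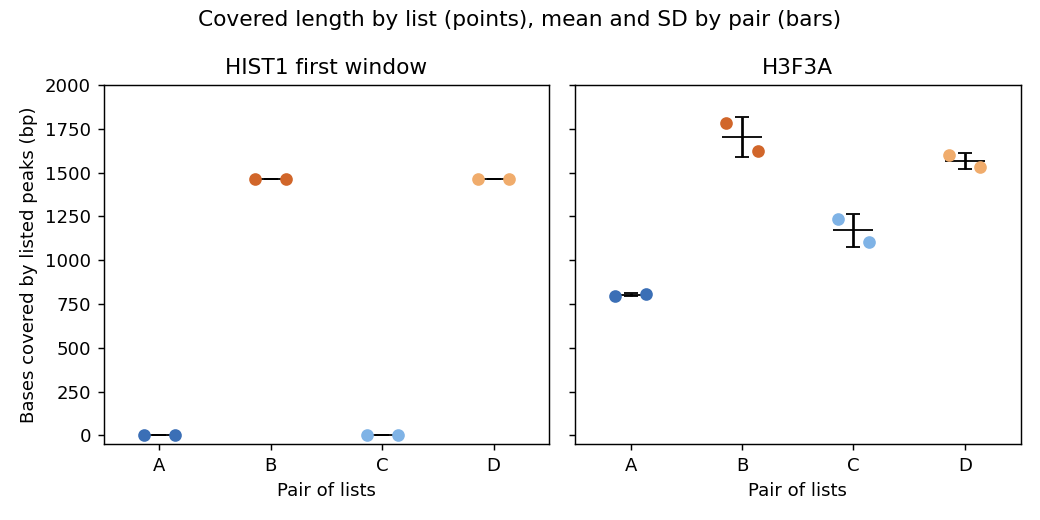
Points give the bases covered by listed peaks (bp) in each list for the HIST1 window at 26017000 (left) and H3F3A (right), and black bars give the mean and SD of each pair (n = 2). B and D sit at 1463 bp in the HIST1 window, where A and C sit at 0, and lie between 1532 and 1783 bp in H3F3A, above the 798 to 1235 bp of A and C.

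Each of the 36802 regions was tested for a difference in covered length between the lists of A and C and those of B and D, by an exact 2-sided permutation test over the 70 orders of 4 lists against 4, which treats replicates of a pair as independent. Of the 9 histone regions, 4 were wholly higher in B and D, the 3 HIST1 regions of the one window and H3F3A region 5, and none was wholly lower. Over all regions 3.30% were wholly higher and 5.98% wholly lower. The 4 had p = 0.0286, the smallest the exact test allows, and adjusted p = 0.308 after Benjamini-Hochberg adjustment over all regions. None of the 36802 regions passed an adjusted 0.05 in this exact permutation test, and 3417 (9.28%) had an unadjusted p under 0.05. With no p below 0.0286, an adjusted 0.05 would need far more regions than these at that value. The adjusted result therefore cannot tell whether any single region differs. The other 5 histone regions had exact permutation p between 0.429 and 0.914.

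Over the other factor, C and D against A and B, which is AS against no AS by the record and K512R against WT by the names, none of the 9 regions was free of overlap. Over all regions 0.163% were wholly higher in C and D and 0.223% wholly lower, together 0.386%. These 142 regions had an unadjusted exact permutation p under 0.05. None passed after adjustment, which the same smallest p put out of reach for so few regions. The smallest p among the histone regions was 0.429 in this exact permutation test, for H3F3A regions 1 and 2.

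Between single pairs, a region was called gained where both lists of the later pair and neither of the earlier one had a peak, and lost in the reverse case. With 2 lists against 2 no exact test can pass 0.05, so counts stand without a p-value, beside the share over all regions. In B against A, 4 of the 9 histone regions were gained (8.21% of all regions) and none was lost (9.63% of all). These were HIST1 regions 1 to 3 and H3F3A region 5. In D against C, 5 were gained (6.26% of all), the same 4 and H3F3A region 1, and 1 was lost (14.4% of all), H3F3A region 2. The 2 comparisons use no list in common.

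In C against A no histone region was gained (4.97% of all) or lost (1.62% of all). In D against B, H3F3A region 1 was gained (2.96% of all) and H3F3A region 2 lost (3.77% of all), and no HIST1 region was either. By the names these comparisons set K512R against WT without and with AS, and by the record AS against no treatment in IP and in input.

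**Figure D4:**
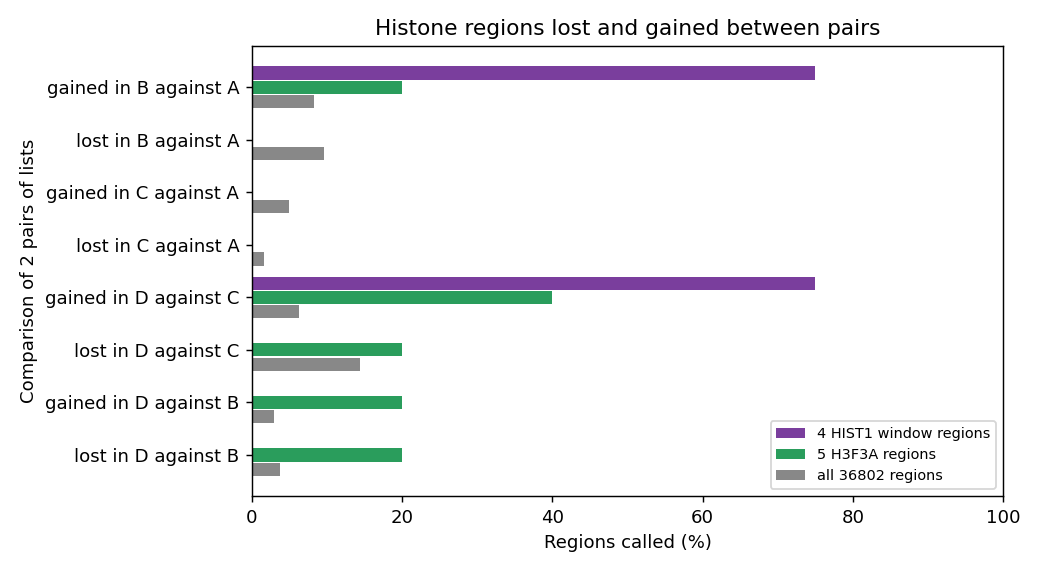
Bars give the percentage of regions called gained or lost in each comparison of 2 pairs of lists, for the 4 HIST1 regions (purple), the 5 H3F3A regions (green) and all 36802 regions (grey). Of the HIST1 regions 3 of 4 were gained in B relative to A, and also in D relative to C, and none in the other comparisons, and bars for so few regions move in large steps.

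A missing peak in a list does not show that none was called. The number in the name of each peak increased along every chromosome in every list, and only 49.7% to 52.1% of the numbers were used. Between neighbouring listed peaks on a chromosome, 58.1% to 59.8% of the pairs had consecutive numbers. The meaning of the unused numbers is unstated, and that they follow the same order is assumed here.

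Across the HIST1 window at 26017000, where A and C had no listed peak, the lists of A skipped 24 and 20 numbers and those of C 16 and 11 between the nearest listed peaks, over stretches of at least 754977 bp. The stretches are much longer than the window, so the numbers cannot be placed in it. In B and D, no number was skipped between HIST1 regions 1 and 2 in any of the 4 lists. Between regions 2 and 3, which both lie in the window, 2 numbers were skipped in 3 of the 4 lists and 1 in replicate 2 of B. Under the assumed order, the numbering of these lists thus holds 1 or 2 entries inside the cluster that the lists leave out.

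Around H3F3B 2 to 12 numbers were skipped in each list, and around H2AFZ 2 to 9. These genes, one of which encodes the same histone as H3F3A, are therefore not shown to be without called peaks. Neither had a listed peak on the other strand.

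Within H3F3A the numbers were consecutive in all 8 lists. In D no number was skipped across H3F3A region 2, between listed peaks 2036 and 2062 bp apart in the 2 lists, so under that ordering no peak was numbered there. Across H3F3A region 5, by contrast, the lists of A skipped 4 and 3 numbers and those of C 3 and 2, before the next listed peak 95201 to 98781 bp on. Across H3F3A region 1 the lists outside D skipped 3 to 10 numbers, except replicate 2 of B, which skipped none. A peak that was called and then left out cannot be told apart from no peak at region 5 in A and C, at HIST1 regions 1 to 3 in A and C, and at H3F3A region 1 in the lists that skipped numbers.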

How the data were processed

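Each of 8 samples had 1 peak list, giving position, strand and a score for every peak. The authors deposited the score without a unit. Per the submitters' processing notes, cutadapt 1.9.3, HISAT2 2.0.4 and hg19 were used. Peak names begin with MACS, per the files, and no source used here gives its version, control or threshold. Samples were grouped by title, and no list of the 8 samples titled K512R was used.

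Same-strand peaks of all lists that shared at least 1 bp were merged to regions. Covered length per region and list was tested by exact permutation with Benjamini-Hochberg adjustment over all regions, and the scripts were tested on simulated data. Peak lists hold no counts, so no count test was run. All variant gene regions and all HIST1 regions are named, since there are 9. The members and the lists of loci were chosen with earlier results of these data known. The use of peak numbers and the 1 kb distance were chosen after the values were seen. Alternatives were a minimum score of 50, equal list lengths, other joining rules, any overlap with a window, the replicate number as a block, and each list left out. The p-values measure the spread between lists, which may be technical. Coordinates count from 1. Scripts ran under Python 3.11.15 with pandas 2.3.3 and numpy 2.4.6, and figures under matplotlib 3.10.9.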

Additional observations from a re-analysis of the deposited data

Results flagged for a closer look

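H3F3A region 4 and the summed covered length of H3F3A went opposite ways in comparisons that share a contrast, in every list. The sum includes region 4, and the contrasts given for region 4 use the same lists, so these are not separate results. In region 4, covered length was higher in C than in A by 323 bp and lower in D than in B by a difference of -165.5 bp, which was -8.0 bp without replicate 1 of B and -323 bp without replicate 2 of B. The same region was higher in B than in A by 166 bp (8.5 bp without replicate 1 of B and 323.5 bp without replicate 2) and lower in D than in C by a difference of -322.5 bp. The summed length of H3F3A was higher in C than in A by 367 bp and lower in D than in B by a difference of -137 bp, which was -56 bp without replicate 1 of B and -218 bp without replicate 2. The size of the differences that involve B thus depends on which of its lists is used, while their direction was the same with either. Leaving out these lists was chosen after seeing the data. The difference between the contrasts was not tested. Of all 36802 regions, 291 (0.791%) went opposite ways in C against A and D against B.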

How the results depend on the processing

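Of 246 values of 22 results under 14 alternatives, 243 stayed within the spread of the replicates or within 1.5 times the count. A mean covered length could not leave the spread when 1 list was left out. Such a shift never exceeds the SD of the 2 lists, so these values do not test stability. Of the 70 values from alternatives that left out no list, 1 moved. With a score of at least 50, the mean covered length of the HIST1 window at 26017000 in B went from 1463 to 1331.5 bp, because the peak of HIST1 region 2 in replicate 1 of B scored 25.23. At that score 3 regions in place of 4 were wholly higher in B and D. At that score and with equal list lengths, HIST1 region 4 had no peak left in A or C. The mean covered length of its window went to 0 from 38.5 bp in A and 37 bp in C, which the rule counted as within the spread. It counted likewise the 0 and 77 bp in A without replicate 1 and without replicate 2 of A. The same held for the 74 and 0 bp in C without replicate 1 and without replicate 2 of C. Leaving out a list also loosens the rules for wholly higher or lower, gained and lost regions. It could add called regions but not remove them, so these counts do not test stability either. Leaving out each list in turn gave 0 to 1 region lost in B against A and 1 to 2 lost in D against C. HIST1 region 4 was the added region, without replicate 2 of A and without replicate 1 of C. With the replicate number as a block, the count was 4. Non-overlap was then required only within each replicate number, so this count could not fall below 4. The smallest exact permutation p was 0.0556 over 36 orders, with an adjusted p of 0.578. The deviations of lists with the same number correlated at 0.0064 to 0.0203 over regions, weak but all positive. In every pair replicate 2 held more peaks than replicate 1. Whether lists with the same number shared a batch was not tested. The smallest adjusted permutation p over all regions for this factor ranged from 0.242 to 0.578 over the alternatives. Depth is unknown, so how far it limits which peaks were listed was not analysed here.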
